A study of Homo sapiens with 6 samples.

Results

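The MYC, MAX and MXD network is a family of basic helix-loop-helix leucine zipper transcription factors. Its members were taken by gene symbol from a list of 10 names. This rule uses no measured value, but the list was chosen with earlier results of these data known. A row was found for 9 of the 10, among the 21293 genes of the table, and MYCN was not analysed here. The 9 genes were MYC, MAX, MXD1, MXD3, MXD4, MXI1, MNT, MGA and MLX, and all 9 passed the filter on low values, a mean over the 6 libraries of 10 or more.

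The cells were H2087-LCC, a population with latency competence that had been selected in mice from a human lung adenocarcinoma cell line, and their mRNA was sequenced. The control cells (SB) received SB505124 for 3 days, a compound that blocks the kinase of the type I TGFβ receptor and so also the response to TGFβ made by the culture itself. The other cells received TGFβ for 3 days or for 7 days, and there were 2 libraries in each of the 3 groups. All groups were the same cell population in culture, and SB was sequenced at 3 days alone. For 7 days of TGFβ against SB, the treatment and the time in culture therefore cannot be told apart. Between 7 and 3 days of TGFβ, the length of treatment and the time in culture cannot be told apart either. The study describes the libraries of a group as technical replicates. The SDs, standard errors and p-values below therefore measure the spread between libraries and may not cover the variation between cultures.

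MAX is the common partner of the network. MYC and MAX bind E-box sequences as a pair and activate genes of growth and division, whereas the MXD proteins (MXD1, MXD3, MXD4 and MXI1) and MNT pair with MAX on the same sequences and recruit the SIN3 corepressor and histone deacetylases. MGA pairs with MAX within a variant Polycomb complex, and MLX is the MAX-like partner of MLXIP and MLXIPL, which respond to glucose metabolites. In epithelial cells, loss of MYC transcription through SMAD3 with E2F4 or E2F5 and the RBL proteins is a textbook step of growth arrest by TGFβ.

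The deposited values are counts normalized by library size and rounded to whole numbers, and their sum per library ran from 34306283 to 36340734. Over 11389 genes averaging 100 or more, paired libraries of SB differed by a median of 0.138 in absolute log2 value, those at 3 days by 0.114 and those at 7 days by 0.104. As a check of the treatment, the TGFβ feedback genes SMAD7 and SKIL were higher and CDH1 lower after TGFβ than in SB at both times, with log2 differences of 3.07, 3.40 and -5.54 at 7 days. The epithelial markers EPCAM, KRT8, KRT18, KRT19, NKX2-1 and SOX2 summed to between 78944 and 111155 normalized counts per library. NKX2-1, EPCAM, SOX2 and KRT18 were lower at 7 days than in SB, with log2 differences of -1.73, -1.62, -1.03 and -0.56. KRT8 and KRT19 were not lower, with log2 differences of 0.11 and 0.24 in the same comparison. The leukocyte markers PTPRC, CD3E and CD14 had at most 8 normalized counts in any library, and the leukocyte list summed to between 4376 and 5119 through CD68, which other cells also express. The endothelial markers PECAM1, CDH5 and VWF together had 56 to 78. No marker of these lists was at 0 in every library.

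MYC fell between 3 and 7 days of TGFβ. The SB libraries held 16285 and 13846 normalized counts, the 3-day libraries 14016 and 14898, and the 7-day libraries 6907 and 6614. Both 3-day values lay between the SB values, and both 7-day values lay below every other library. Such separation was common with 2 libraries per group. Of all tested genes, 63.2% did not overlap between 3 days and SB, 77.5% between 7 days and SB, and 69.1% between the times. SB averaged 15066 ± 1725 (SD, n = 2), against 14457 ± 624 for the 3-day and 6760.5 ± 207 for the 7-day libraries. With limma (empirical Bayes with a trend, Benjamini-Hochberg adjustment over 14395 genes), the log2 difference at 3 days against SB was -0.055 (SE 0.092, adjusted p = 0.691), with a 95% interval from -0.26 to 0.14. At 7 days, MYC was at 0.449 times its SB mean, a log2 difference of -1.15 (SE 0.092, adjusted p = 9.91e-07). Against 3 days, the log2 difference at 7 days was -1.10 (SE 0.092, adjusted p = 1.44e-05). MYC had the widest span of group means of the 9 members, 1.16 on the log2 scale, followed by MXD3 with 0.84 and MXD4 with 0.75, while MGA had the narrowest, 0.035. In bulk RNA, fewer cells that express a gene and less of its RNA per cell cannot be told apart.

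**Figure D1:**
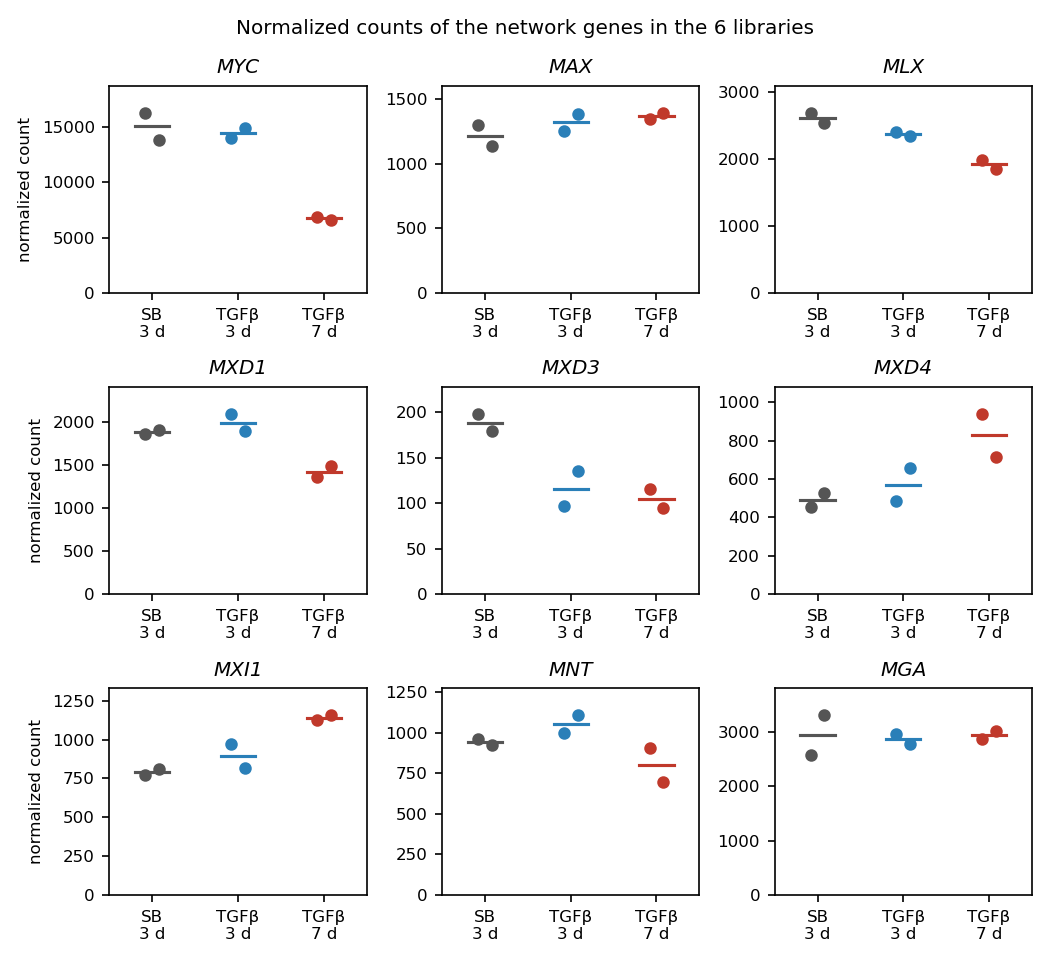
Normalized counts of the 9 network members in each of the 6 libraries, on linear axes that start at 0, with a panel for each gene, a point for each library and a line at each group mean. The MYC points of the 7-day libraries, at 6907 and 6614, lie below those of the other 4 libraries, and the MGA points of the 3 groups overlap.

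Of the 9 members, 1 passed the threshold (adjusted p under 0.05) at 3 days of TGFβ against SB, where 29% of all tested genes did. At 7 days against SB, 6 of the 9 did, 2 higher and 4 lower, beside 54.5% of all tested genes (27.7% higher and 26.9% lower). Between 7 and 3 days of TGFβ, 6 of the 9 did, again 2 higher and 4 lower, beside 33.2% of all tested genes. The 7-day comparisons share their 7-day libraries and are not independent of each other. The median log2 difference of the members was 0.077 at 3 days against SB, -0.25 at 7 days against SB and -0.13 at 7 days against 3 days. Over all tested genes these medians were -0.022, -0.00081 and 0.019.

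**Figure D2:**
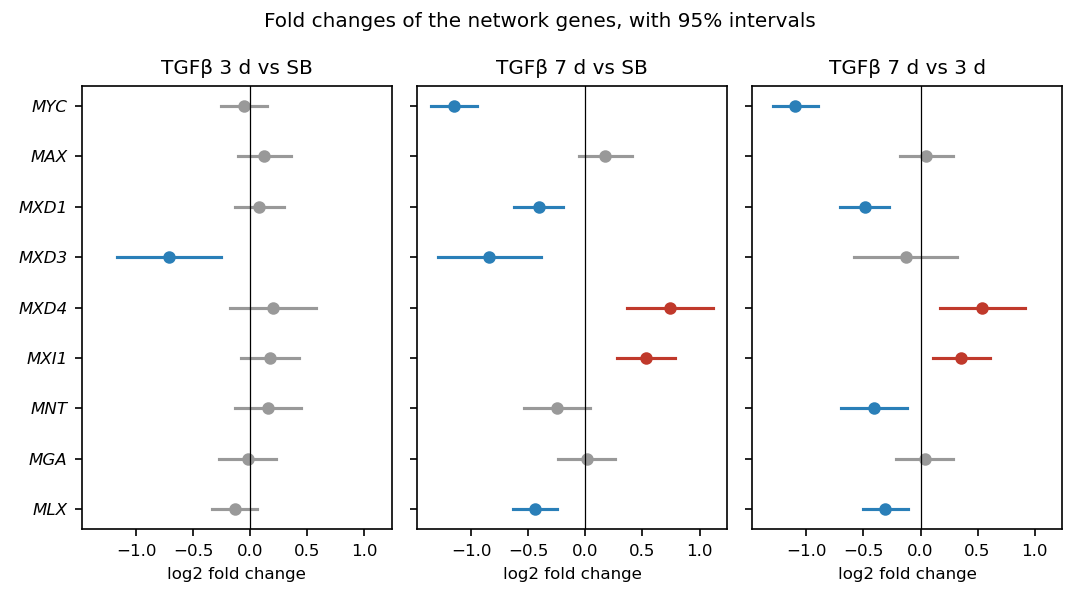
Log2 differences of the 9 members in the 3 comparisons, with 95% intervals from limma. Red points passed the threshold with a higher value, blue points with a lower value, and grey points did not pass; at 7 days against SB, MXD4 and MXI1 are the red points and MYC is farthest to the left.

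MAX, the shared partner, had 1296 and 1133 normalized counts in SB, 1256 and 1385 at 3 days, and 1342 and 1392 at 7 days. The 3-day values overlapped those of both other groups, whereas both 7-day values lay above both SB values. The log2 difference at 7 days against SB was 0.17 (SE 0.11, adjusted p = 0.189), with an interval from -0.06 to 0.41. At 3 days against SB it was 0.12 (adjusted p = 0.429, interval -0.11 to 0.36), so rises and falls of up to these sizes remained possible at both times. Exons of MAX overlap those of FNTB on the opposite strand over up to 822 bases, and the library kit does not mark strand, so reads from the overlap cannot be told apart.

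The 4 MXD repressors did not move together. MXD4 and MXI1 were higher at 7 days than in SB, and MXD1 and MXD3 were lower. MXI1, described as an antagonist of MYC, had 769 and 810 normalized counts in SB, 973 and 814 at 3 days, and 1125 and 1158 at 7 days. Its 7-day values lay above all others. The log2 difference of MXI1 at 7 days was 0.53 against SB (SE 0.12, adjusted p = 0.00211, a ratio of means of 1.45) and 0.36 against 3 days (adjusted p = 0.0328). The second call was lost without the second 3-day library, with a difference of 0.23 (adjusted p = 0.269), without either 7-day library, with 0.38 or 0.34, and without the filter on low values or the trend in limma (adjusted p = 0.0748 and 0.0793).

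MXD4, a member associated with differentiating cells, had 454 and 528 normalized counts in SB, 483 and 655 at 3 days, and 939 and 715 at 7 days. Both 7-day values again lay above the other 4, although the 7-day libraries differed from each other by 0.39 on the log2 scale. At 7 days MXD4 had a log2 difference of 0.74 against SB (SE 0.17, adjusted p = 0.00312, a ratio of means of 1.68) and of 0.54 against 3 days (SE 0.17, adjusted p = 0.0303). After a correction of each library for GC content and transcript length, these differences were 0.53 and 0.31, and both passed the threshold. The second call was lost without the first 3-day library, with a difference of 0.32 (adjusted p = 0.240), without the first 7-day library, with 0.35 (adjusted p = 0.259), and without the filter or the trend (adjusted p = 0.136 and 0.112).

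MXD1, the first described partner of MAX that opposes MYC, had 1860 and 1908 normalized counts in SB, 2091 and 1889 at 3 days, and 1355 and 1483 at 7 days. The 7-day values lay below all others, and the SB and 3-day values overlapped. Its log2 difference at 7 days was -0.41 against SB (SE 0.10, adjusted p = 0.00397) and -0.49 against 3 days (SE 0.10, adjusted p = 0.00331). Without the first 7-day library, the difference from SB was -0.34 and missed the threshold (adjusted p = 0.0539).

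MXD3, which is expressed in dividing cells, was the member called at 3 days. It had 198 and 179 normalized counts in SB, 97 and 135 at 3 days, and 115 and 95 at 7 days. Both TGFβ groups lay below SB and overlapped each other. The log2 difference from SB was -0.71 at 3 days (SE 0.21, adjusted p = 0.0226) and -0.84 at 7 days (SE 0.21, adjusted p = 0.00458). MXD3 had the lowest counts of the 9 members, its exons overlap those of PRELID1 and RAB24 over up to 1148 bases, and its 3-day libraries differed by 0.47 on the log2 scale. Without the first 3-day library, the 3-day difference was -0.48 (adjusted p = 0.215), without the first SB library it was -0.64 (adjusted p = 0.0893), and without the second 7-day library the 7-day difference was -0.71 (adjusted p = 0.0502). Without the filter or the trend, the adjusted p at 3 days was 0.0843 and 0.0526.

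MNT, the repressor found in most cell types, had 961 and 925 normalized counts in SB, 998 and 1108 at 3 days, and 902 and 696 at 7 days. The 3-day values lay above SB and the 7-day values below it. The log2 difference between 7 and 3 days was -0.41 (SE 0.13, adjusted p = 0.0331), whereas the differences from SB were 0.16 at 3 days (adjusted p = 0.405, interval -0.13 to 0.44) and -0.25 at 7 days (adjusted p = 0.127, interval -0.54 to 0.04). Without the first 7-day library, the difference from SB at 7 days was -0.44 and passed the threshold (adjusted p = 0.0327). The call between 7 and 3 days was lost without either 3-day library, with differences of -0.48 and -0.33, without the second 7-day library, with -0.22 (adjusted p = 0.332), and without the filter or the trend (adjusted p = 0.11 and 0.101).

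MLX was lower at 7 days of TGFβ than in both other groups. It had 2687 and 2536 normalized counts in SB, 2407 and 2349 at 3 days, and 1991 and 1855 at 7 days. None of the 3 groups overlapped, and in each single comparison most tested genes did not overlap either. The log2 difference was -0.13 at 3 days against SB (SE 0.090, adjusted p = 0.292), -0.44 at 7 days against SB (SE 0.090, adjusted p = 0.00141) and -0.31 at 7 days against 3 days (SE 0.090, adjusted p = 0.0219). The last call was lost without either 3-day or either 7-day library, with differences from -0.36 to -0.26, and without the trend in limma (adjusted p = 0.0669). Exons of MLX overlap those of PSMC3IP on the opposite strand over up to 775 bases.

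MGA, the largest protein of the network, had 2578 and 3312 normalized counts in SB, 2970 and 2787 at 3 days, and 2878 and 3019 at 7 days. The SB values enclosed the other 4. Its log2 differences were -0.022 at 3 days (interval -0.27 to 0.23, adjusted p = 0.906) and 0.013 at 7 days (interval -0.24 to 0.26, adjusted p = 0.933) against SB. MGA has the longest transcript of the 9 (12193 bases), and after a correction of each library for GC content and transcript length the 7-day difference was -0.32 (adjusted p = 0.00654).

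Levels of different genes were compared after division by the length of the canonical transcript, as normalized counts per kilobase. On this scale the SB means ran from MYC at 4049, MLX at 1107 and MAX at 604 to MXD1 at 340, MGA at 242, MXI1 at 228, MNT at 191, MXD3 at 177 and MXD4 at 127. At 7 days MYC was still the highest, at 1817, but MXI1, at 329, stood above MXD1, at 256. Neighbours in these orders whose libraries overlapped were MGA and MXI1 in SB and MXD1 and MGA at 7 days, and MXD4, at 214 on average at 7 days, overlapped MGA there too. The orders rest on 1 transcript model per gene.

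The 5 repressors that pair with MAX (MXD1, MXD3, MXD4, MXI1 and MNT) summed to 1055 and 1069 normalized counts per kilobase in SB, 1076 and 1096 at 3 days, and 1102 and 1016 at 7 days. Both 3-day sums lay slightly above both SB sums, and the 7-day sums, the highest and the lowest of the 6, overlapped both other groups. MXI1 made up 21.0% and 21.8% of the sum in SB, 26.1% and 21.4% at 3 days, and 29.4% and 32.8% at 7 days. MXD1 made up 31.8% and 32.2% in SB and 22.2% and 26.3% at 7 days, and MXD4 11.1% and 12.8% in SB and 22.0% and 18.2% at 7 days. MXD3 made up 17.6% and 15.7% in SB and 9.8% and 8.8% at 7 days, and MNT 18.5% and 17.6% in SB and 16.6% and 13.9% at 7 days. The sum and the shares depend on the transcript model of each gene, and that of MXD3 is the shortest, at 1067 bases. The ratio of MYC to this sum was 4.15 and 3.48 in SB, 3.50 and 3.65 at 3 days, and 1.68 and 1.75 at 7 days. MYC over MAX was 6.79 and 6.60 in SB, 6.03 and 5.81 at 3 days, and 2.78 and 2.57 at 7 days. These are ratios of RNA levels, given as a description, and proteins were not measured here.

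**Figure D3:**
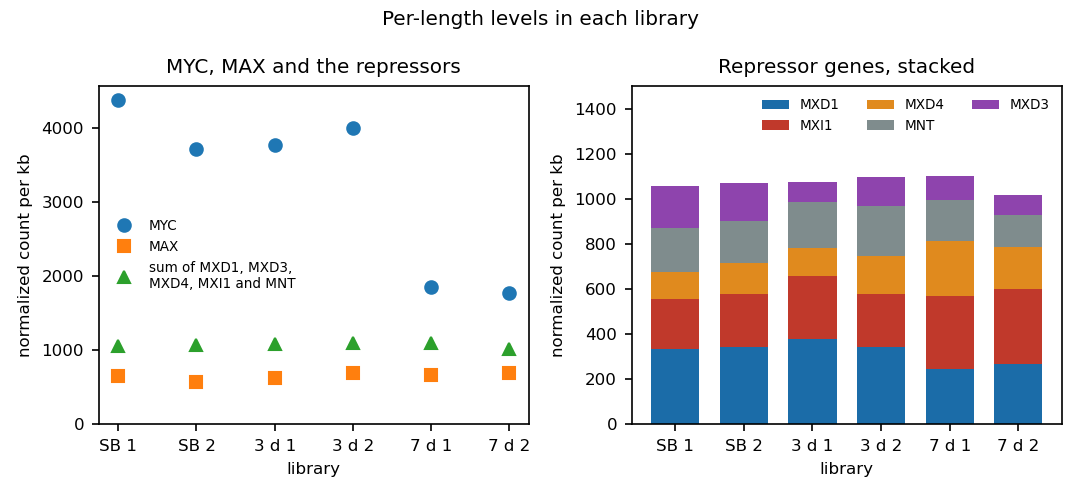
Normalized counts per kilobase of the canonical transcript in each of the 6 libraries, as points for MYC, MAX and the summed repressors (left) and as stacked bars for the single repressors (right). The summed repressors stay between 1016 and 1102 in all 6 libraries, while MYC is at 3721 or more in SB and at 3 days and at 1856 or less at 7 days.

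The genes with the pattern most like that of MYC over the 6 libraries, among genes averaging 100 or more, were PRKAG2, TCF19 and CDC6. Likeness was the root mean square difference of log2 values, each gene centred on its own mean. PRKAG2, a regulatory subunit of AMP-activated kinase, had a difference of 0.0747 and values of 623 and 520 in SB, 594 and 611 at 3 days, and 298 and 275 at 7 days. TCF19 had a difference of 0.0773, and CDC6, which loads the replicative helicase, 0.0821. As a description, the Pearson correlation with MYC over the 6 libraries was 0.993, 0.991 and 0.988.

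E-boxes were then looked for beside the genes. The motif CACGTG, which reads the same on both strands, is the sequence that MYC and MAX bind best, and it was searched in the RefSeq windows of GRCh38.p14 from 250 bases before to 50 bases after each start. Of the 9 members, 8 had a window, and MXD4, MNT and MLX held the motif, at positions -238, -193 and -50 from the start. Across all tested genes with a window, 12.5% held it (1293 of 10355). Of the 39 known targets described below that had a window, 18 (46.2%) held it. These genes were listed from general knowledge as MYC targets, so this share is a description and not independent support. The 250 bases before the start are shown for the 3 members with the motif and for SRM, the target with a single window that fell most among those holding it, with the motif in capitals. MXD4 is read on the minus strand of chr4:2262110-2262359, MNT on the minus strand of chr17:2401061-2401310, MLX on the plus strand of chr17:42566850-42567099, and SRM on the minus strand of chr1:11060019-11060268.
MXD4: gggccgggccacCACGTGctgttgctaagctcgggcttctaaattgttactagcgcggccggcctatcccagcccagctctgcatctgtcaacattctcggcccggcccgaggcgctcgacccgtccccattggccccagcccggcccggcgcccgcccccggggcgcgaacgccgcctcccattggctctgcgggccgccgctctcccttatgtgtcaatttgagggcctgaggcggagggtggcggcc
MNT: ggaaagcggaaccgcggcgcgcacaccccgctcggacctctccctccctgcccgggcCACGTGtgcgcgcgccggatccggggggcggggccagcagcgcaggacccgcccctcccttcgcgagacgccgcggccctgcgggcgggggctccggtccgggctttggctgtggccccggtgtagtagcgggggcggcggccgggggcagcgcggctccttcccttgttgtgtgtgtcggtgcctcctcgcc
MLX: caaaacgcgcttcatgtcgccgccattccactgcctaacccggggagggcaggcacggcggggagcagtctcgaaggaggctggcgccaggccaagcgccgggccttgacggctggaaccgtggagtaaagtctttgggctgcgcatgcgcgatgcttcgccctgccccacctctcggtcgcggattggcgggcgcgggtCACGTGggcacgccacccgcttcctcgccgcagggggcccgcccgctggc
SRM: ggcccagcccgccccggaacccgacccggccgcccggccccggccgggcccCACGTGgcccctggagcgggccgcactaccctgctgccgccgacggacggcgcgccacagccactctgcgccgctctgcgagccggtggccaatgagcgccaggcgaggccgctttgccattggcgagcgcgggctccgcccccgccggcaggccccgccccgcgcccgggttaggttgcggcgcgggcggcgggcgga
The members with the motif did not share a direction, since MXD4 was higher at 7 days than in SB, MLX was lower, and MNT missed the threshold. A match describes these letters only, and binding was not measured.

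Most of the known targets that MYC activates fell. From general knowledge, 48 such genes were listed in groups of nucleolar, metabolic and cell cycle genes, and 45 were tested. This list and those below were chosen with earlier results of these data known, so their counts are a description and not independent support. At 7 days against SB, 40 of the 45 were lower and none was higher with limma (0 higher and 42 lower at an unadjusted p under 0.05), with a median log2 difference of -0.81, beside 26.9% lower among all tested genes. At 3 days against SB, when MYC itself did not pass the threshold, 17 of the 45 were lower and none higher (0 higher and 27 lower unadjusted), with a median of -0.23 beside 14% lower among all tested genes. Between 7 and 3 days, 36 of the 45 were lower and none higher (39 lower and 0 higher unadjusted), with a median of -0.49 beside 16.2% lower. At 7 days against SB, 16 of the 18 targets with CACGTG in a window were lower, with a median log2 difference of -0.77, and 18 of the 21 without it, with a median of -0.84.

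Nucleolar and translation genes made the most even group, with 17 of 18 lower at 7 days against SB and a median log2 difference of -0.84. The exception was EIF4E, the cap-binding factor, with a difference of -0.21 that missed the threshold. BOP1, a ribosome assembly factor, fell by 1.38 on the log2 scale, from 952 and 931 normalized counts in SB to 565 and 746 at 3 days and 416 and 312 at 7 days. PA2G4 fell by 0.98, and FBL, the methyltransferase of ribosomal RNA, and RRS1 by 0.94 each.

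Of the metabolic targets, 14 of 17 were lower at 7 days against SB, with a median log2 difference of -0.53. ODC1, the rate-limiting enzyme of polyamine synthesis, had 26075 and 19967 normalized counts in SB, 18343 and 16808 at 3 days, and 6195 and 6273 at 7 days. Its log2 difference from SB was -0.38 at 3 days (SE 0.11, adjusted p = 0.0251) and -1.87 at 7 days (SE 0.11, adjusted p = 8.39e-08). The next enzyme of that pathway, spermidine synthase (SRM), had 4110 and 3214 in SB, 2467 and 2939 at 3 days, and 1516 and 1286 at 7 days, a log2 difference of -1.38 at 7 days against SB (SE 0.13, adjusted p = 5.14e-06). HK2, a hexokinase, was at 0.353 times its SB mean, and IMPDH2, of guanine nucleotide synthesis, fell by 1.21 on the log2 scale. The targets that missed the threshold were LDHA, with a log2 difference of -0.06, PRPS2, with -0.24, and SLC3A2, with -0.15.

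Cell cycle and chaperone targets were lower for 9 of 10 at 7 days against SB, with a median log2 difference of -0.80, and CUL1 was the exception, with -0.09. E2F2, an activator of S phase genes, showed the widest difference of all the listed targets, with 437 and 558 normalized counts in SB, 191 and 175 at 3 days, and 95 and 103 at 7 days. This was a log2 difference of -1.43 at 3 days and -2.31 at 7 days against SB (SE 0.17 for both, adjusted p = 5.95e-05 and 4.96e-07). RCC1, HSPD1 and CDC25A fell by 1.33, 1.23 and 1.12 at 7 days. Genes expressed in dividing cells were also lower. The 6 proliferation markers MKI67, TOP2A, PCNA, MCM2, CCNB1 and CCNA2 summed to 94806 and 97122 normalized counts in SB, 78206 and 75239 at 3 days, and 55868 and 59698 at 7 days. All 6 were lower at 7 days than in SB and than at 3 days, beside 26.9% and 16.2% lower among all tested genes. At 3 days against SB, when MYC did not pass the threshold, 4 of the 6 were lower, beside 14% lower among all tested genes. Their part in the MYC and target results was not tested.

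**Figure D4:**
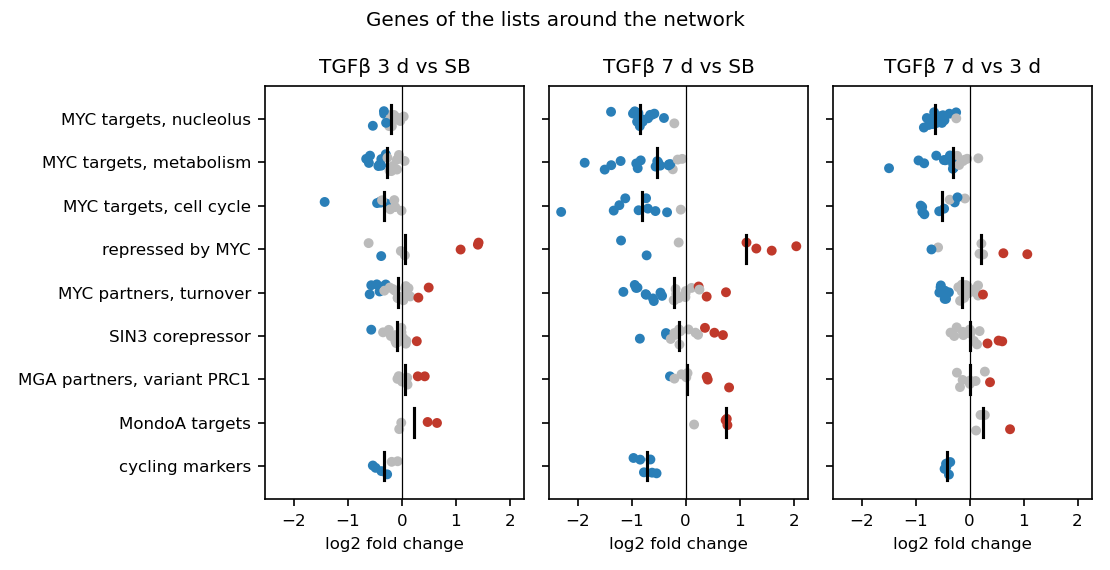
Log2 differences of the tested genes of the listed groups in the 3 comparisons, with a point for each gene and a black bar at each group's median (MondoA is MLXIP). Red points passed the threshold with a higher value, blue points with a lower value and grey points did not pass, and in the nucleolar, metabolic and cell cycle target groups all points that passed lie below 0.

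Genes that MYC is known to repress moved both ways. At 7 days against SB, 4 of the 7 were higher and 2 were lower, with a median log2 difference of 1.13, beside 27.7% higher and 26.9% lower among all tested genes. The CDK inhibitor genes CDKN2B and CDKN1A rose by 2.05 and 1.60 and the stress gene NDRG1 by 1.31 on the log2 scale. CDKN1C, another CDK inhibitor gene, fell by 1.20 but had only 34 and 39 normalized counts in SB and 13 and 18 at 7 days. GADD45A, a stress-response gene, had 2625 and 2598 in SB and 1515 and 1650 at 7 days, a log2 difference of -0.72 (SE 0.091, adjusted p = 4.05e-05). At 3 days against SB, 3 of the 7 were higher and 1 was lower, beside 14.9% and 14% of all tested genes. The lower gene was CDKN1B, a CDK inhibitor gene, with a log2 difference of -0.38 (limma adjusted p = 0.0112). At 7 days against SB its difference was -0.13 and missed the threshold. The 3 higher genes at 3 days were CDKN2B, CDKN1A and NDRG1, with log2 differences of 1.42, 1.41 and 1.09, when MYC itself did not pass the threshold. Of these 3 higher genes, only CDKN2B passed the threshold between 7 and 3 days, with 0.63.

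At 7 days against SB, the partners of MLX differed from MLX in direction. MLXIP, also known as MondoA, had 2508 and 3262 normalized counts in SB, 5695 and 6509 at 3 days, and 8802 and 7852 at 7 days. Its groups did not overlap, and it was higher by a log2 difference of 1.09 at 3 days (SE 0.12, adjusted p = 3.94e-05) and 1.54 at 7 days (SE 0.12, adjusted p = 1.00e-06) against SB. MLXIPL, also known as ChREBP, was near the filter, with 8 and 13 in SB, 4 and 7 at 3 days, and 40 and 37 at 7 days. It passed the filter on low values only through its 7-day libraries, so its log2 difference of 1.81 at 7 days against SB is given as a description. Of 4 tested genes that MLXIP and MLX are known to activate, 3 were higher at 7 days against SB with limma and none was lower, also at an unadjusted p under 0.05. Among all tested genes, 27.7% were higher and 26.9% lower with limma in this comparison. TXNIP, which limits glucose uptake, had 7058 and 8216 in SB, 7904 and 7251 at 3 days, and 12078 and 13411 at 7 days, so its values at 3 days overlapped SB and its 7-day values lay above both (log2 difference 0.74, SE 0.10, adjusted p = 5.54e-05). KLF10, itself induced by TGFβ in many cells, was higher by 0.77 and PFKFB3 by 0.76. MYCL, the other MYC gene in the table, had 5 to 18 normalized counts in every library and passed no threshold.

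Among 23 tested cofactors and regulators of MYC protein stability, 3 were higher and 10 lower at 7 days against SB, with a median log2 difference of -0.21. Among all tested genes, 27.7% were higher and 26.9% lower. The share called in either direction was near the 54.5% of all tested genes. The largest differences were RUVBL2 and RUVBL1, the ATPases of chromatin remodellers that MYC recruits, with -1.15 and -0.94, and then PLK1 with -0.92 and the phosphatase subunit gene PPP2R5A with -0.89. Of 10 regulators of MYC transcription in the TGFβ and WNT pathways, 2 were higher and 6 lower at 7 days against SB, where 27.7% and 26.9% of all tested genes were. SMAD3 had 11488 and 10618 normalized counts in SB, 8171 and 7518 at 3 days, and 5101 and 4843 at 7 days, and its groups did not overlap. It was lower by a log2 difference of -0.49 at 3 days (SE 0.085, adjusted p = 0.000963) and -1.15 at 7 days (SE 0.085, adjusted p = 5.03e-07). The pocket protein gene RBL2 was higher by 0.67 at 7 days, and E2F5 and TFDP1, which act with it, were both lower, each with a log2 difference of -0.64.

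The corepressor partners of the MXD proteins were split, with 3 of 15 SIN3 complex genes higher and 3 lower at 7 days against SB, a share below that of all tested genes. SAP30 was lower by -0.85 on the log2 scale and RBBP7 by -0.36, while ARID4B was higher by 0.69 and ARID4A by 0.53. In the Polycomb complex that holds MGA, 3 of 8 genes were higher and 1 lower, again a share near the 54.5% of all tested genes. RNF2, its ubiquitin ligase, had 1660 and 1473 normalized counts in SB, 2167 and 2039 at 3 days, and 2672 and 2794 at 7 days, and was higher by 0.43 at 3 days (SE 0.096, adjusted p = 0.00603) and 0.80 at 7 days (SE 0.096, adjusted p = 2.86e-05). RING1 was higher by 0.41 and YAF2 by 0.39, and PCGF6, its defining subunit, was lower by -0.29 (adjusted p = 0.0497). With a pseudocount of 5, 3 genes of this complex were called in place of 4. Of 8 germline genes that this complex silences in other cells, only 2 passed the filter on low values. STAG3, a meiotic cohesin gene, had 8 in both SB libraries, 5 and 11 at 3 days, and 37 and 34 at 7 days. It passed the filter only through its 7-day libraries. STK31 was lower by -0.62.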

How the data were processed

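RNA-seq had been performed on 6 libraries of H2087-LCC cells (SB, TGFβ 3 days and TGFβ 7 days, 2 each). The authors mapped read pairs to hg19 with STAR, counted them on genes with HTSeq 0.6.1p1 and scaled each library by its size. The deposited values are these scaled counts rounded to whole numbers, recorded here under the unit score because they are no longer read counts. The negative binomial test of the study needs raw counts and was not used. Values were put on the scale of log2(value + 1). Genes averaging 10 or more (14395) went into one limma 3.58.1 fit of the 6 libraries (R 4.3.3), with 3 residual degrees of freedom and Benjamini-Hochberg adjustment at 0.05 per comparison. An exact permutation test of 2 against 2 libraries cannot give a p below 0.333. The members and lists were chosen with earlier results of these data known. Every member was named, and from each other list up to 4 genes called at 7 days against SB, those with the largest log2 difference; other genes named, such as list members that missed the threshold, were added after their values were seen. Transcript lengths came from GENCODE on GRCh37, and promoter windows from RefSeq on GRCh38.p14. Replicate numbers were not used to pair the libraries in the main fit. One gene of the treatment check is not reported here. The steps were tested on simulated data. Plots used matplotlib 3.10.9 and Python 3.11.15.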

Additional observations from a re-analysis of the deposited data

Results flagged for a closer look

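Values at 3 and at 7 days of TGFβ differed for 6 of the 9 members by the limma test of 7 days against 3 days. Of all tested genes, 33.2% passed the threshold in this comparison. The length of treatment and the time in culture cannot be told apart in it. The log2 difference between the times was -1.10 for MYC, -0.49 for MXD1, -0.41 for MNT and -0.31 for MLX, which were lower at 7 days, and 0.54 for MXD4 and 0.36 for MXI1, which were higher. Both 3-day values of MNT exceeded both SB values, and both 7-day values were below them, although neither difference from SB passed the threshold. No group held enough libraries to look for a library that stood apart by its values.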

How the results depend on the processing

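Differences from SB at 7 days passed the threshold for MYC, MXD4, MXI1 and MLX under all 17 alternatives, and differences between 7 and 3 days for MYC and MXD1. The number of members called at 3 days against SB was 0 without the filter on low values and 0 without the trend in limma, and 0 to 1 with each library left out (0 without SB replicate 1 or 3-day replicate 1). At 7 days against 3 days it was 3 without the filter and 2 without the trend, and 3 to 6 with each library left out (3 without any one of the 3-day or 7-day libraries); at 7 days against SB it was 5 to 6. Over all genes, 3042 were called between 7 and 3 days without the filter and 3122 without the trend, and with each library left out the counts ran from 2609 to 3877 at 3 days against SB, from 5913 to 7687 at 7 days against SB and from 2314 to 5554 between the times. The lowest of these came without 3-day replicate 1 (2609) and without 7-day replicate 2 (5913 and 2314), and counts between the times were also 2810 without 3-day replicate 1 and 2573 without 7-day replicate 1. The cause of these changes was not tested.

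Signs turned for values that had not passed. The MGA difference at 7 days against SB was -0.035 with equal library totals. With each library left out, the log2 difference at 3 days against SB ran from -0.17 to 0.062 for MYC, from -0.20 to 0.16 for MGA and from -0.020 to 0.42 for MXD4. At 7 days against SB it ran from -0.17 to 0.19 for MGA, and between the times from -0.019 to 0.12 for MAX, from -0.37 to 0.11 for MXD3 and from -0.011 to 0.081 for MGA. A correction of each library for GC content and transcript length, added after the data were examined and covering 12837 of the 14395 genes, called 9 members at 7 days against SB, with MGA at -0.32, MNT at -0.53 and MAX at 0.23, and gave MGA -0.15 between the times.

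The labels do not say whether the replicate numbers pair the libraries. The correlation of replicate 1 minus replicate 2 was 0.208 between SB and 3 days, -0.13 between SB and 7 days and -0.65 between the times. These values cannot settle whether the libraries were paired. With the replicate number as a block, 3943, 7546 and 4485 genes were called in the 3 comparisons, and the members called stayed at 1, 6 and 6. The crossed pairing, added after the data were examined, called 5404, 8763 and 5972.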
